A study of Homo sapiens with 6 samples.

Results

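The genes described here are 10 transcription factors of the AP-1 and immediate early response: FOS, FOSB, FOSL1, FOSL2, JUN, JUNB, JUND, EGR1, ATF3 and MYC. They were chosen by name, and every probe annotated to them was taken from the unnormalized probe table, which gave 13 probes for these 10 of the 18852 genes annotated there. Of these genes, 9 passed the detection filter and entered the test among 10803 features, and FOSL2 did not. Expression was measured on 6 single-colour Illumina bead arrays, 1 per sample, in RWPE-1 cells, a non-tumorigenic line of immortalised human prostate epithelial cells. Cells in the LNA-205 group (arrays D, E and F) had been transfected with 100 nM of a locked nucleic acid, a modified oligonucleotide that binds its complement tightly, directed against the microRNA miR-205. Cells in the LNA-Scr group (arrays A, B and C) had received 100 nM of a scrambled oligomer. RNA was taken 72 h later in both groups, so all 6 samples share the transfection and the oligomer chemistry, and no untransfected sample was analysed here. All samples are of 1 cell line, and the 3 samples of a group are taken as replicate transfections. The p-values therefore set a difference against the spread between these cultures only.

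AP-1 is a family of dimers in which a JUN protein pairs with another JUN protein or with a FOS or ATF protein through a leucine zipper, and the dimer then binds short DNA elements. Growth factors, stress and wounding activate MAP kinases, which switch on FOS, JUN, EGR1 and ATF3 within minutes without new protein synthesis, and the transcripts of most of these genes are short-lived. In stratified and glandular epithelia AP-1 controls proliferation, migration and differentiation, while MYC, which pairs with MAX, drives growth and ribosome production. The samples here were taken 72 h after transfection, and no earlier time was analysed.

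The microRNA that the oligomer targets is shown to identify the target. Its mature strand, from RefSeq on GRCh38.p14 (chr1:209432166-209432187, plus strand), carries the seed, bases 2 to 8, in capitals.
hsa-miR-205-5p: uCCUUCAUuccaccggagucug
The arrays do not read this mature microRNA, so the silencing itself was not measured.

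The promoters of 4 factors are shown because JUN and ATF3 varied most alike across the 6 arrays, as described further on, whereas FOS and EGR1, the textbook immediate early genes, varied less. Each is the 250 bases before the gene's start in RefSeq (GRCh38.p14), read along the gene. Capitals mark TGACATCA and TGACG, elements of the kind that JUN and ATF proteins bind, and the CArG box, the site of serum response factor. TGANTCA, which includes the classical AP-1 site but allows any middle base (N), was also searched. Both strands were read, so TGACG on the other strand appears as CGTCA.
JUN: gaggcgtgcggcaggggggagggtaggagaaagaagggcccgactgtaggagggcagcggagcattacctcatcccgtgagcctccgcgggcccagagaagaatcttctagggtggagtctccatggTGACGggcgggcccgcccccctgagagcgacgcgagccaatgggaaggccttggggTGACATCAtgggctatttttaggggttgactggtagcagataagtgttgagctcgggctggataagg
ATF3: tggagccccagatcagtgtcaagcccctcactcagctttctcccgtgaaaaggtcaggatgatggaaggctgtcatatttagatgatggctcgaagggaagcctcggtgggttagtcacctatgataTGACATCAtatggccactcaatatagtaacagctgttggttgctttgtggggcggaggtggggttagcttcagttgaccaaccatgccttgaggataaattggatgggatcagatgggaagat
FOS: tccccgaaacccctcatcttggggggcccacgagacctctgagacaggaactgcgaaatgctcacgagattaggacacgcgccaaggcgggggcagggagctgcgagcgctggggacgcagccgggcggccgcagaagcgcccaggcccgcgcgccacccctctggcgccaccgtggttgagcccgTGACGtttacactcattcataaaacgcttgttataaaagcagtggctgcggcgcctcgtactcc
EGR1: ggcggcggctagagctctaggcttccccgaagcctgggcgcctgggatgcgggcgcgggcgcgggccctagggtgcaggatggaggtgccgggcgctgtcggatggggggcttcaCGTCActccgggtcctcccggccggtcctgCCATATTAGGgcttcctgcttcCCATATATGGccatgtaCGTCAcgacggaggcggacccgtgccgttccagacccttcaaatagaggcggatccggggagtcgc
The JUN window is chr1:58784048-58784297 on the minus strand. The others lie on plus strands, at chr1:212565157-212565406 for ATF3 (the more upstream of its 2 listed starts), chr14:75278578-75278827 for FOS and chr5:138465229-138465478 for EGR1. TGACATCA stood 67 to 60 bases before the JUN start and 123 to 116 bases before the ATF3 start. The window of the other ATF3 start held none of the searched elements. Which of these starts, if either, gave the ATF3 transcript read by the probe was not tested. FOSB shared the array pattern described further on with JUN and ATF3. It held TGACG 60 to 56 bases before its start and no TGACATCA. Promoter windows were listed for 8 of the 10 genes, 9 windows in all, since ATF3 has 2. A gene is counted if any of its windows holds the element, whereas the shares over all are per window. Of the 8 genes 2 held TGACATCA, which 2.37% of all 35116 listed windows of that length hold. TGACG was present in 7 of the 8 genes, against 21.2% of all windows. The full element TGACGTCA, which contains TGACG on both strands, was present in 1 of the 8 genes, JUND, against 1.65% of all windows. EGR1 held a pair of CArG boxes, at 105 to 96 and 83 to 74 bases before its start, and 1.16% of all windows hold at least 1. FOS held none in its window, and bases outside the windows were not searched. TGANTCA was in 0 of the 8 genes and in 6.57% of all windows. The elements searched were a chosen set of known sites, so a match in a gene is no independent finding. The shares were not tested for enrichment. These matches describe letters in a window and were not tested as binding sites. Whether they bear on the variation across arrays was not tested.

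The cells carried the markers of basal prostate epithelium. Of 11 basal markers 9 passed the detection filter, among them KRT5 with a mean log2 intensity of 14.79 in LNA-205 and 14.67 in LNA-Scr, and KRT14 with 15.28 in LNA-205 and 15.25 in LNA-Scr. Of 12 luminal markers 2 passed (KRT8 and KRT18), of 10 fibroblast markers 1 (ACTA2), and of 13 leukocyte and endothelial markers 2 (CD14 and CD68). The defining markers PTPRC, PECAM1, COL1A1 and KLK3 did not pass. Between 12585 and 14195 probes were detected on an array, and the SD of the log2 difference between arrays was 0.291 to 0.330 for pairs within a group and 0.306 to 0.330 for pairs across groups. Pairs within and across groups thus differed by similar amounts. Since whole cultures were measured, fewer cells expressing a gene and less RNA per cell cannot be told apart.

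None of the measured factors passed the test between LNA-205 and LNA-Scr cells. With limma, which fits each feature with a variance moderated across all of them, 0 of the 9 had an adjusted p under 0.05 over the 10803 features, where 0.00926% of all features passed. That was 1 feature, MCCC2, which encodes a subunit of a leucine-degrading enzyme and was singled out after its value was seen, with a log2 difference of −1.72 (limma adjusted p = 0.0445). At an unadjusted p under 0.05 there was 1 of the 9, FOSL1, against 6.27% of all features. Values were higher in LNA-205 for 5 of the 9 (FOSB, JUN, JUND, ATF3 and MYC), where 49.8% of all features were, and lower for 4 (FOS, FOSL1, JUNB and EGR1). Their median log2 difference was 0.03, against −0.00075 over all features. These differences are LNA-205 minus LNA-Scr on the scale of normalized log2 intensity. The count of 0 called factors held under each of the 13 other settings tried. The 9 genes did not share a direction, and their differences ran from −0.34 for FOSL1 to 0.31 for ATF3.

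**Figure D1:**
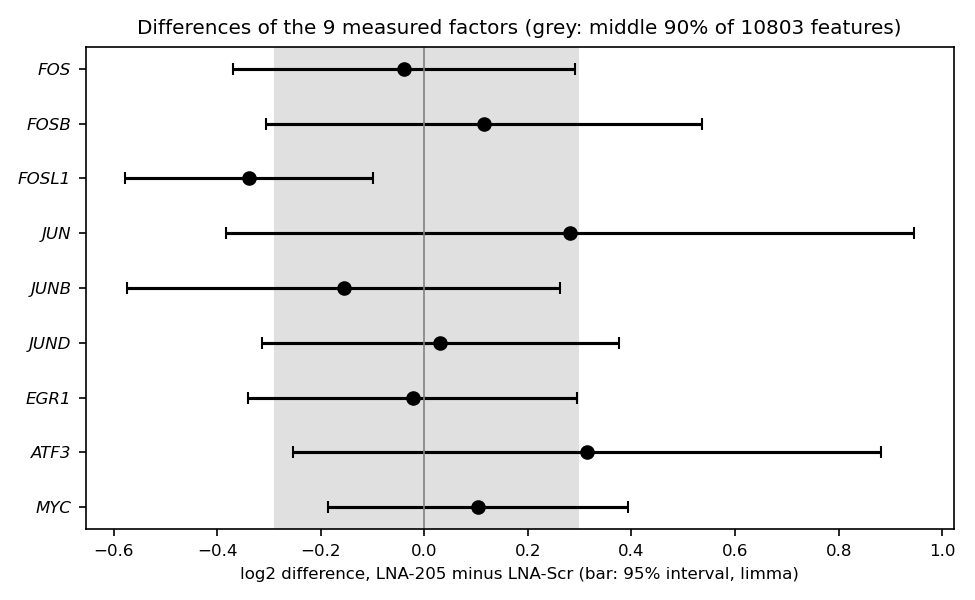
Log2 difference of each measured factor, LNA-205 minus LNA-Scr, with its 95% interval from limma (horizontal axis, log2 units). The grey band holds the middle 90% of the 10803 features, from −0.29 to 0.30, and the intervals of all factors except FOSL1 include 0.

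Among the FOS proteins, which act chiefly as partners of JUN proteins, FOSL1 was the member whose groups separated. FOSL1 encodes FRA-1, the FOS relative that is typical of migrating and wounded epithelium. Its normalized log2 intensity was 10.93, 11.07 and 10.98 on LNA-205 arrays D, E and F, against 11.35, 11.42 and 11.23 on LNA-Scr arrays A, B and C. Every LNA-205 value lay below every LNA-Scr value, and the arrays within a group lay close together. It averaged 10.99 ± 0.070 in LNA-205 and 11.33 ± 0.096 in LNA-Scr (SD, n = 3 each). The log2 difference was −0.34 (SE 0.10, 95% interval −0.58 to −0.099), and the limma adjusted p was 0.691. FOSL1 was the 1 factor of the 9 without overlap between groups on the lower side, where 5.78% of all features had that pattern, and 0 of the 9 had it on the higher side, where 6.38% did. With single arrays left out the difference stayed between −0.39 and −0.29. Before normalization its intensities were also lower, at 2230.0, 2388.4 and 2013.9 in LNA-205 and 2568.8, 3284.0 and 2493.3 in LNA-Scr.

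FOS itself, the founding member and a partner of JUN in the classical dimer, had means 0.04 apart on the log2 scale. Values were 13.07, 13.26 and 13.40 on LNA-205 arrays D, E and F, against 13.17, 13.14 and 13.53 on LNA-Scr arrays A, B and C. The groups overlapped over most of their range, and the lowest array was D and the highest C. The log2 difference was −0.04 (SE 0.14, 95% interval −0.37 to 0.29, limma adjusted p = 0.986). FOSB, a close paralog of FOS that is induced with it, had 13.31, 13.71 and 13.91 in LNA-205 (D, E and F), against 13.28, 13.55 and 13.76 in LNA-Scr (A, B and C). Array D and array A were the low ones of their groups, and the groups overlapped. FOSB differed by 0.12 on the log2 scale (SE 0.18, 95% interval −0.31 to 0.54, limma adjusted p = 0.941).

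FOSL2, which encodes FRA-2, was at the edge of detection. Its probe was above background on 1 LNA-205 array, F, with a detection p of 0.00659, and on 0 LNA-Scr arrays. Unnormalized intensities were 319.0, 305.2 and 385.9 on arrays D, E and F of LNA-205, against 237.8, 317.3 and 284.3 on arrays A, B and C of LNA-Scr. Array F was the highest and array A the lowest. No fold is given, because 5 of the 6 values are not well above background.

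**Figure D2:**
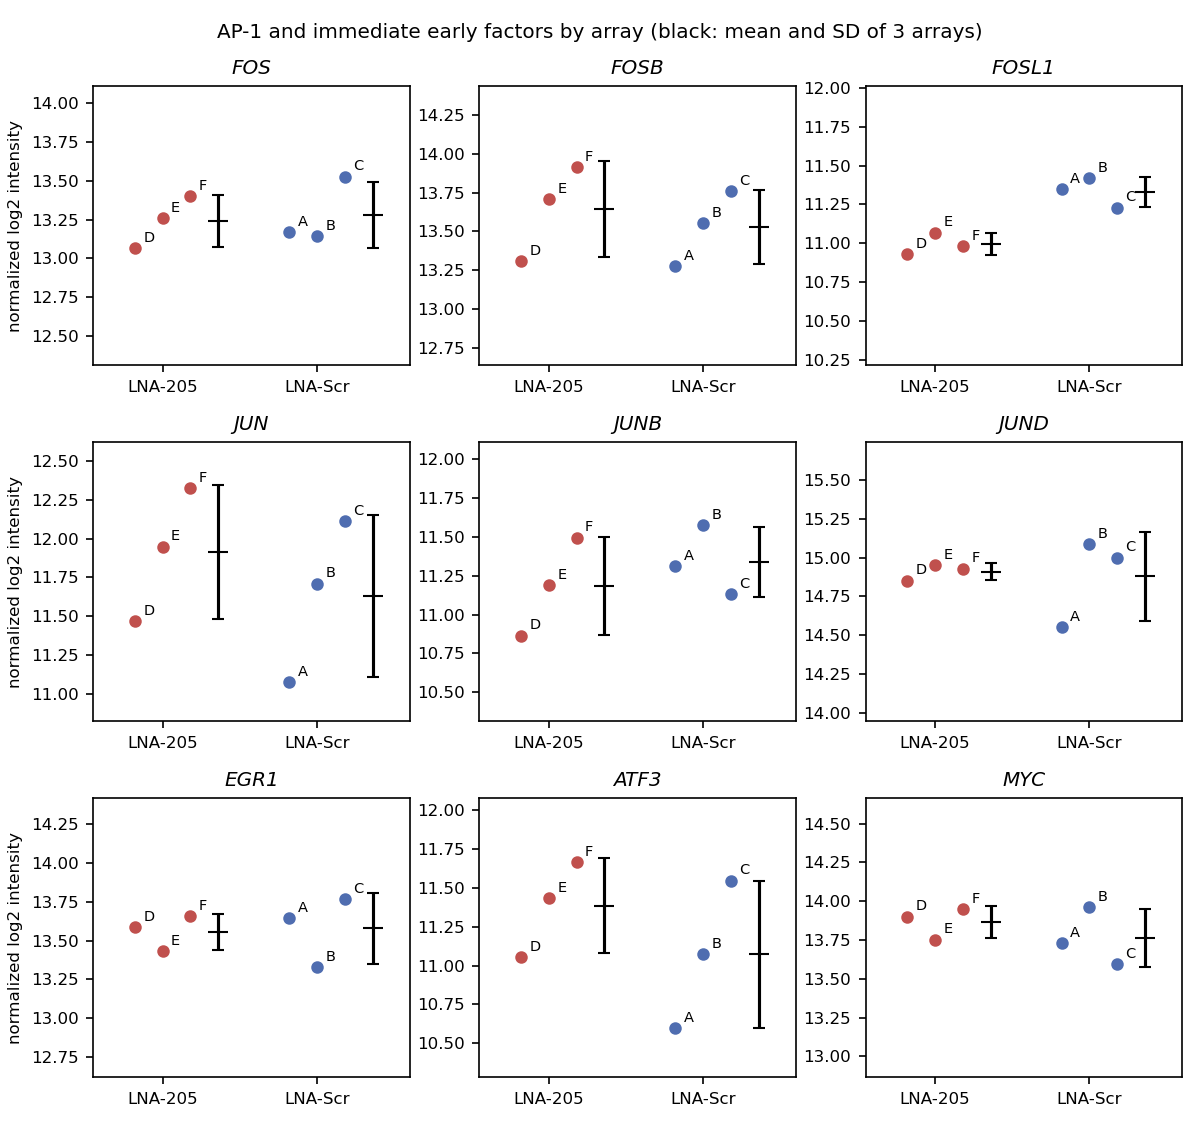
Normalized log2 intensity (vertical axis, the same span in each panel) of the 9 measured factors on LNA-205 arrays D, E and F (red) and LNA-Scr arrays A, B and C (blue), with the mean and SD of 3 arrays in black. FOSL1 is the panel whose groups do not overlap, and JUN and ATF3 have the largest SD pooled over the 2 groups.

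The JUN proteins can pair with one another as well as with FOS and ATF proteins. JUN, the main transactivator, spread widely in both groups. Its values were 11.47, 11.95 and 12.32 on LNA-205 arrays D, E and F, against 11.07, 11.71 and 12.11 on LNA-Scr arrays A, B and C. The range within LNA-205 was 0.86 and that within LNA-Scr 1.04, both wider than the log2 difference between groups of 0.28 (SE 0.29, 95% interval −0.38 to 0.95, limma adjusted p = 0.910). Without LNA-Scr array A the log2 difference was 0.0022, and without LNA-Scr array C it was 0.52. It was 0.50 without LNA-205 array D and 0.076 without LNA-205 array F, so its size depended on single arrays of both groups.

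JUNB, which often restrains proliferation and is induced together with JUN, had another order of arrays in LNA-Scr. It had 10.87, 11.19 and 11.50 on LNA-205 arrays D, E and F, against 11.31, 11.58 and 11.13 on LNA-Scr arrays A, B and C. Array D was the lowest and array B the highest, and the groups overlapped. JUNB differed by −0.16 on the log2 scale (SE 0.18, 95% interval −0.57 to 0.26, limma adjusted p = 0.916). JUND, which most cells express without a stimulus, had 14.85, 14.95 and 14.93 in LNA-205 (D, E and F), against 14.55, 15.09 and 15.00 in LNA-Scr (A, B and C). The 3 LNA-205 arrays agreed within 0.10, and in LNA-Scr array A alone lay low. The log2 difference was 0.03 (SE 0.15, 95% interval −0.31 to 0.38, limma adjusted p = 0.990), and −0.13 without LNA-Scr array A.

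ATF3, a stress-induced factor that pairs with JUN proteins and often represses, had the largest positive difference of the 9. It was read from the 1 of its 3 probes that was detected, and that probe was detected on all 6 arrays. Values were 11.06, 11.43 and 11.67 on LNA-205 arrays D, E and F, against 10.60, 11.07 and 11.55 on LNA-Scr arrays A, B and C. The groups overlapped, with A lowest and F highest. The log2 difference was 0.31 (SE 0.25, 95% interval −0.25 to 0.88, limma adjusted p = 0.870), and it was 0.48 without LNA-205 array D, 0.17 without LNA-205 array F, 0.08 without LNA-Scr array A and 0.55 without LNA-Scr array C. Neither of the other ATF3 probes was detected on any array.

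EGR1, a zinc finger factor that serum response factor switches on together with FOS, was read by 1 probe that was detected on all 6 arrays. It had 13.59, 13.43 and 13.66 on LNA-205 arrays D, E and F, against 13.64, 13.33 and 13.77 on LNA-Scr arrays A, B and C. The LNA-205 values lay inside the LNA-Scr range. The log2 difference was −0.02 (SE 0.14, 95% interval −0.34 to 0.30, limma adjusted p = 0.993). MYC had 13.90, 13.75 and 13.95 in LNA-205 (D, E and F), against 13.73, 13.96 and 13.59 in LNA-Scr (A, B and C). These groups overlapped too, with array C lowest and array B highest. The log2 difference was 0.10 (SE 0.13, 95% interval −0.19 to 0.39, limma adjusted p = 0.916), with 0.20 without LNA-Scr array B and 0.019 without LNA-Scr array C. A second MYC probe, detected on all 6 arrays, gave 0.02 (SE 0.14) in a fit with every probe as its own feature.

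Variation among arrays of the same group was large for several of these genes. The pooled SD within groups was 0.48 for JUN, 0.40 for ATF3, 0.28 for FOSB and 0.27 for JUNB on the log2 scale, against a median of 0.16 over all features and an upper quartile of 0.23. Spread depends on intensity, so each gene was also set beside the features whose mean lay within 0.5 of its own. There, 1 of 1362 features varied more than JUN, 5 of 1655 more than ATF3, 23 of 1638 more than JUNB and 10 of 462 more than FOSB. JUND (SD 0.21) was exceeded by 9 of 211 such features, FOS (0.19) by 61 of 596 and EGR1 (0.18) by 65 of 470. MYC (0.15) was exceeded by 104 of 400. FOSL1 was the exception, with a pooled SD of 0.084 that 1346 of 1672 features of like intensity exceeded. The factor whose groups did not overlap was thus also the one with the smallest pooled SD.

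**Figure D3:**
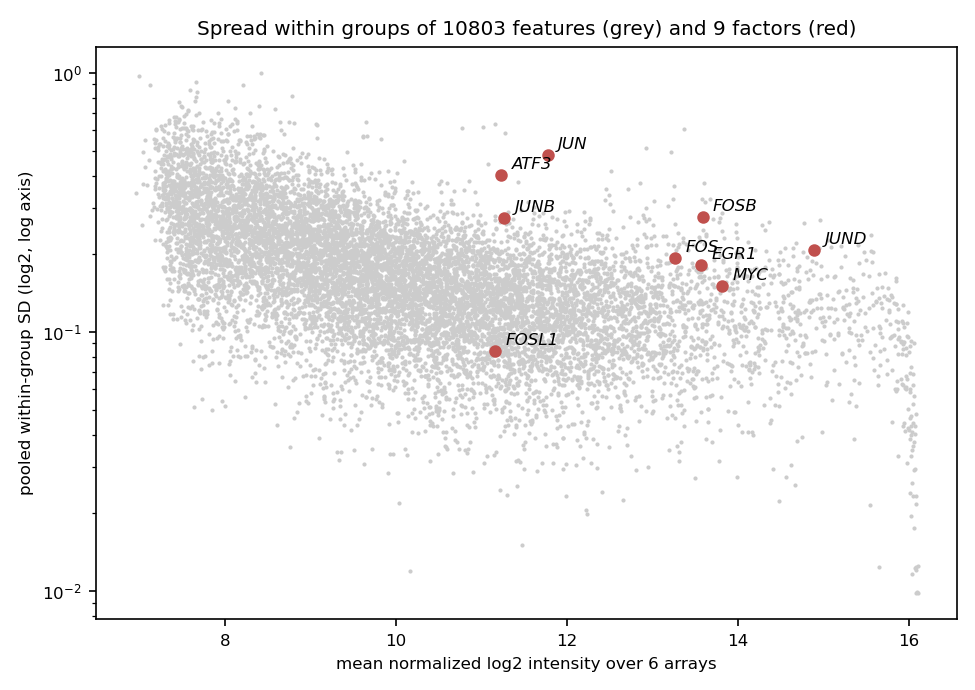
Pooled within-group SD (vertical log axis, log2 units) against the mean normalized log2 intensity over 6 arrays (horizontal axis) for 10803 features in grey and the 9 measured factors in red. JUN and ATF3 lie at the upper edge of the cloud at their intensity, at 0.48 and 0.40, and FOSL1 lies in its lower part, at 0.084.

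Of the factors with the widest spread, 3 shared a pattern across arrays. FOSB, JUN and ATF3 were each lowest on D and highest on F among the LNA-205 arrays, and lowest on A and highest on C among the LNA-Scr arrays. This was 3 of the 9 measured factors, or 33.3%, against 435 of 10803 features (4.03%) over the whole table and 44 of the 535 features (8.22%) in the top 5% of within-group SD. After the mean of each gene over the 6 arrays was subtracted, the root mean square distance between JUN and ATF3 was 0.086, the smallest of any pair of the 9. That between FOS and EGR1 was 0.14, as was that between FOS and FOSB. The widest was 0.51, between JUN and FOSL1. The other 6 measured factors did not have that order of arrays in both groups. The pattern was noticed after the values were seen and has no test. The letters A to F are names that do not pair arrays between groups, and what the arrays with high values share was not tested.

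NR4A2 and DUSP1, among other immediate early transcripts, had the same pattern. JUN was the factor with the largest SD over the 6 arrays, and the feature nearest to it outside the 10 genes was an unnamed probe, at a distance of 0.082. LINC01451, a long noncoding RNA, followed at 0.092 and NR4A2, an orphan nuclear receptor of the immediate early class, at 0.10. This ranking over all features and 6 arrays is a description. NR4A2 was 7.41, 8.01 and 8.36 on LNA-205 arrays D, E and F, against 7.28, 7.93 and 8.27 on LNA-Scr arrays A, B and C, with a log2 difference of 0.10 (SE 0.30). Its signal was low, at percentile 10.1 of mean intensity, and it was detected on 2 LNA-205 and 3 LNA-Scr arrays. The pooled SD of NR4A2, 0.49, was exceeded by 140 of 1825 features of like intensity. The log2 intensity of DUSP1, the phosphatase that switches MAP kinases off and is itself an early target of them, was 12.96, 13.50 and 13.86 in LNA-205 (D, E and F), against 12.51, 13.47 and 13.94 in LNA-Scr (A, B and C). Its pooled SD of 0.60 was exceeded by 0 of 534 features of like intensity. The groups overlapped for both genes.

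IL6 and CXCL8, cytokine genes that AP-1 is known to regulate, also had this order of arrays and were singled out after their values were seen. IL1B, a cytokine gene of the same list, did not have it, since its lowest LNA-Scr value was on array B. IL6 was 9.45, 9.79 and 10.16 on LNA-205 arrays D, E and F, against 8.59, 9.71 and 10.23 on LNA-Scr arrays A, B and C. CXCL8, the neutrophil chemokine interleukin 8, was 10.76, 11.05 and 11.66 in LNA-205 (D, E and F), against 10.05, 11.07 and 11.48 in LNA-Scr (A, B and C). Array A lay lowest for both, by more than the groups differed. Their log2 differences were 0.29 (SE 0.38) for IL6 and 0.29 (SE 0.36) for CXCL8, and without LNA-Scr array A they were −0.17 and −0.11. In counts, the pattern was held by 6 of 28 other immediate early genes (21.4%) and 2 of 15 feedback regulators of MAP kinases (13.3%). It was held by 2 of 22 AP-1 target genes (9.09%) and by 1 of 10 partners and targets of EGR1 and ATF3 (PPP1R15A). The share was 4.03% over all features and 8.22% in the top 5% of within-group SD. The count asks only for the order of arrays, whatever its size. DUSP5, counted among the feedback regulators, had a pooled SD of 0.032. The pattern was held by 0 of 12 other leucine zipper partners of AP-1 and 0 of 23 upstream kinases and ternary complex factors. It was also held by 0 of 27 MYC target genes and 0 of 9 genes of the MYC network.

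**Figure D4:**
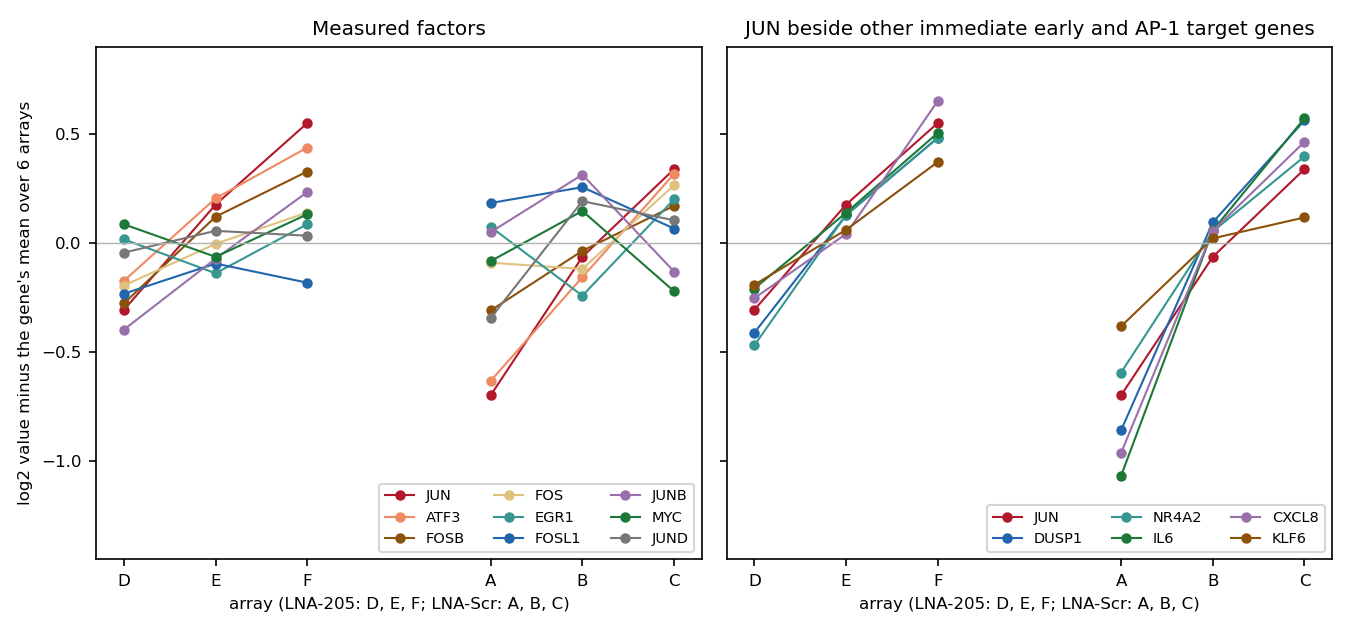
Log2 intensity minus the gene's own mean over the 6 arrays (vertical axis) for LNA-205 arrays D, E and F and LNA-Scr arrays A, B and C, with lines that only link the points of a gene. On the left are the 9 measured factors and on the right JUN with DUSP1, NR4A2, IL6, CXCL8 and KLF6, which were low on D and A and high on F and C.

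The wider pathway was read from lists of genes around the 10 factors, and 0 genes of these lists passed the limma test in either direction. The genes named from each list are the 2 with the smallest p and the brightest. Lack of overlap between groups among them therefore follows in part from that choice. Groups did not overlap for 12.2% of all features, both directions together. This also held for MAPK9, MAPK13, SRM and TFRC, where it is not repeated below. Of 22 other leucine zipper partners of AP-1 12 were measured, 7 higher and 5 lower in LNA-205, with a median log2 difference of 0.04. ATF5, a survival and stress factor, had 10.42, 10.17 and 10.40 on LNA-205 arrays D, E and F, against 10.75, 10.50 and 10.82 on LNA-Scr arrays A, B and C. Its groups did not overlap, with a log2 difference of −0.36 (SE 0.13, limma adjusted p = 0.735). DDIT3 (CHOP), an ER stress factor, differed by 0.30 (SE 0.18) and CREB1, the cAMP response factor, by −0.18 (SE 0.11).

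Of 34 other immediate early genes 28 were measured, 13 higher and 15 lower, with a median of −0.0032. IER5 had the smallest p of them, with 11.02, 11.10 and 11.06 on LNA-205 arrays D, E and F, against 10.78, 10.86 and 10.77 on LNA-Scr arrays A, B and C. Its log2 difference was 0.26 (SE 0.10, limma adjusted p = 0.752) without overlap. KLF2, a Krüppel-like factor, was detected on 1 LNA-205 array and on 3 LNA-Scr arrays, so it passed the filter through LNA-Scr. Its log2 values were 7.28, 7.41 and 7.70 in LNA-205 (D, E and F), against 7.61, 8.24 and 7.78 in LNA-Scr (A, B and C), and the groups overlapped. The fitted log2 difference of −0.42 (SE 0.18) rests on values of which 2 in LNA-205 are not well above background, and it was −0.22 without background correction and −0.23 without LNA-Scr array B. KLF6, read by the brightest probe of the list, differed by 0.16 (SE 0.18).

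Regulators of the MAP kinase pathway, which relays the signal to these genes, gave 0 calls as well. Of 20 feedback regulators 15 were measured, 8 higher and 7 lower, with a median log2 difference of 0.0038. DUSP7, a phosphatase of ERK, differed by −0.30 (SE 0.17) and SPRED1, an inhibitor of RAS signalling, by −0.23 (SE 0.13), with DUSP1, the brightest, at 0.13 (SE 0.36). Of 34 kinases and ternary complex factors 23 were measured, 8 higher and 15 lower, with a median of −0.06. MAPK9, the JUN kinase JNK2, differed by 0.25 (SE 0.12), although a second detected probe gave 0.07, and MAPK13, a p38 kinase, by −0.23 (SE 0.12). MAP2K2, which encodes the ERK kinase MEK2, was the brightest and differed by −0.13 (SE 0.14).

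Epithelial genes reported as AP-1 targets were measured for 22 of 32 entries, 13 higher and 9 lower in LNA-205, with a median log2 difference of 0.07. HMGA2, an architectural chromatin protein, had the smallest p, with 10.54, 10.44 and 10.71 on LNA-205 arrays D, E and F, against 10.972, 11.015 and 11.002 on LNA-Scr arrays A, B and C. The groups did not overlap, and the log2 difference was −0.43 (SE 0.11, limma adjusted p = 0.609). A second detected HMGA2 probe had the opposite sign, at 0.14 (SE 0.16), and the mean of the gene's probes gave −0.15. Its relative HMGA1, read by the list's brightest probe, had 14.98, 15.28 and 15.09 on LNA-205 arrays D, E and F, against 15.32, 15.46 and 15.31 on LNA-Scr arrays A, B and C. Its log2 difference was −0.25 (SE 0.12, limma adjusted p = 0.793), again without overlap.

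In the MYC network, 9 of 14 listed genes were measured, 5 higher and 4 lower, with a median log2 difference of 0.03. The MXD proteins compete with MYC for MAX and repress its targets. MXD3 had 9.20, 9.47 and 9.04 on LNA-205 arrays D, E and F, against 8.39, 8.79 and 8.70 on LNA-Scr arrays A, B and C. MXD1 had 9.43, 9.60 and 9.81 in LNA-205 (D, E and F), against 8.997, 9.334 and 8.996 in LNA-Scr (A, B and C). Groups did not overlap for either gene, and the log2 differences were 0.61 (SE 0.15, limma adjusted p = 0.609) for MXD3 and 0.50 (SE 0.14, limma adjusted p = 0.691) for MXD1. MXD4, the brightest of the list, differed by 0.13 (SE 0.11).

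MYC target genes were measured for 27 of 30 entries, 12 higher and 15 lower, with a median of −0.03. SRM, spermidine synthase, differed by −0.30 (SE 0.11) and TFRC, the transferrin receptor, by 0.23 (SE 0.095), and the brightest, the translation factor EIF4A1, by −0.05 (SE 0.098). Of 15 partners and targets of EGR1 and ATF3 10 were measured, 5 higher and 5 lower, with a median of 0.02. NDRG1, a stress and hypoxia response gene, differed by −0.26 (SE 0.15), CDKN1A, the cell cycle inhibitor p21, by 0.18 (SE 0.11) and DDIT4, an inhibitor of mTORC1 and the brightest of the list, by −0.10 (SE 0.11). Adjusted p-values of limma for the genes of these lists were 0.609 or higher.

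**Figure D5:**
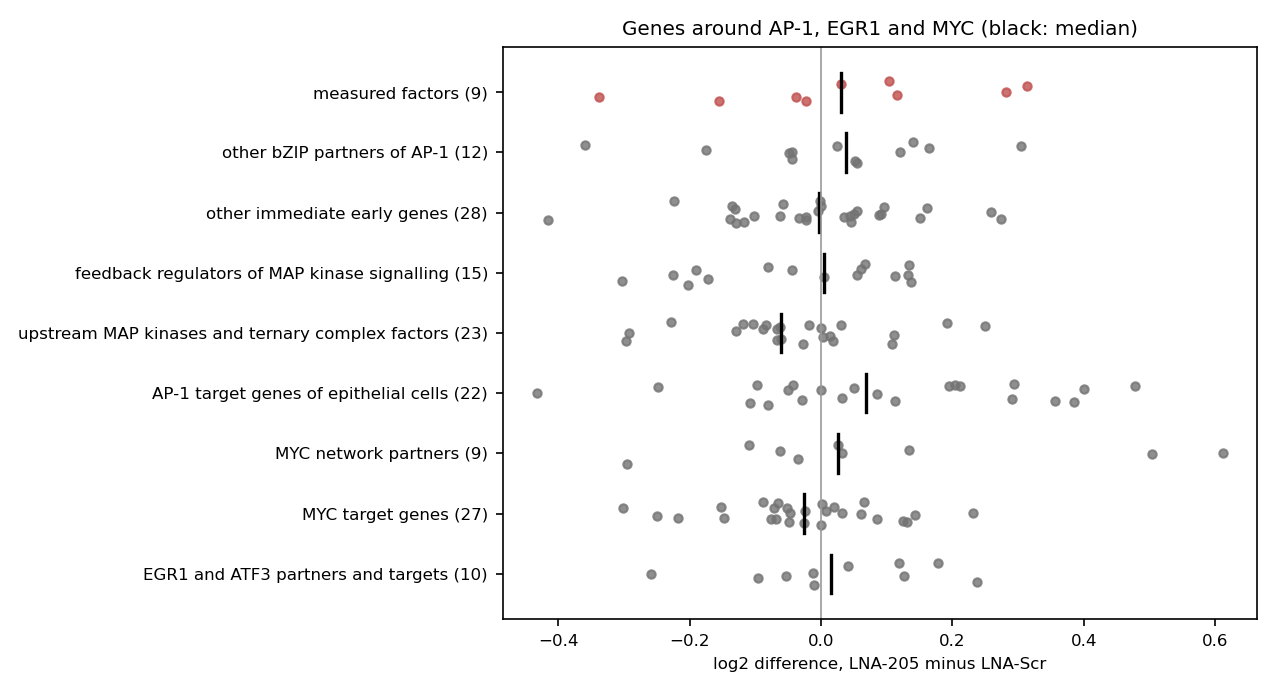
Log2 difference, LNA-205 minus LNA-Scr (horizontal axis), of the 9 measured factors in red and of the measured genes of 8 lists around them in grey, with the number measured in brackets and the median as a black line. Medians lie between −0.06 and 0.07, and MXD3 and MXD1 of the MYC network lie farthest to the right, at 0.61 and 0.50.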

How the data were processed

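The members and the gene lists were chosen with earlier results of these data known. Groups and array letters came from the sample titles. The deposited unnormalized values are log2 probe intensities, with no background subtracted and no scaling between arrays, as judged from the values, and the deposited detection p-values, named so per the file headers, are taken as Illumina's comparison of a probe with the array's negative controls. The authors' processed log2 values served as an alternative. lumi is listed as a tool, per the submitters' processing notes, and the normalization behind the processed values was not given in the sources used here.

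Values were present for 48799 of the 48803 probe rows. Background was corrected, an offset of 16 added and arrays quantile normalized with neqc of limma 3.58.1 in R 4.3.3. Probes with a detection p under 0.01 on at least 3 arrays were kept (13423), and named from a platform annotation with symbols updated through RefSeq for 28056 probes. For each gene the brightest kept probe was used, and unnamed probes stayed single. Features were tested two-sided with lmFit and eBayes and Benjamini-Hochberg adjustment at 0.05. The fit was tested on simulated data. From each list the text names the 2 genes with the smallest p and the brightest, and IL6 and CXCL8 were added after their values were seen. Alternatives were 7 processing settings and each array left out, with the normalized values and features kept. The number of arrays limits the precision.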

Additional observations from a re-analysis of the deposited data

How the results depend on the processing

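Across the 13 alternative settings 0 of the measured factors and 0 of the 38 named genes had an adjusted p under 0.05, and the median log2 difference of the factors lay between −0.02 and 0.13, below 0 in 4 of them. The single feature called over the whole table was lost without a detection filter (0 called), when probes of a gene were averaged (0), with every probe as its own feature (0) and with any array left out (0 to 0). The cause was not tested, and leaving an array out changes both the number of arrays and the values used. The features with an unadjusted limma p under 0.05 numbered 677, and 2064 without a detection filter, where 39556 features entered. Of 492 gene values under alternatives, 471 kept their direction and 21 turned. JUND turned to −0.0030 with cyclic loess and −0.0064 with the authors' values. With single arrays left out, log2 differences ran from −0.12 to 0.085 for FOS, −0.020 to 0.28 for FOSB, −0.31 to 0.0036 for JUNB, −0.13 to 0.14 for JUND and −0.15 to 0.072 for EGR1. They ran from −0.26 to 0.45 for DUSP1, −0.18 to 0.35 for NR4A2, −0.17 to 0.65 for IL6 and −0.11 to 0.60 for CXCL8, and also from −0.19 to 0.26 for GADD45B and −0.068 to 0.32 for PPP1R15A, a pair of stress genes from the lists that was added after the values were seen. Other differences kept their sign but moved by over 1.5 times without 1 array, with ranges of 0.16 to 0.49 for DDIT3, −0.55 to −0.23 for KLF2, 0.011 to 0.30 for KLF6, −0.45 to −0.14 for DUSP7, −0.34 to −0.13 for SPRED1, −0.28 to −0.13 for MAPK13, −0.25 to −0.026 for MAP2K2, −0.090 to −0.019 for EIF4A1, −0.38 to −0.15 for NDRG1 and −0.16 to −0.014 for DDIT4. The cause of these moves was not tested beyond the arrays named. No paired analysis was possible because no array letter occurs in both groups. Probes close to background, such as that of FOSL2, could not be compared at this signal.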
